A study of Oncorhynchus mykiss with 14 samples.

Results

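Control eggs of longer rainbow trout females were compared with control eggs of shorter females. The 7 control libraries of the 14 in the series were split by the total body length of the mother, with 3 libraries from females of 615 mm or more (F2, F4 and F7) and 4 from females of 565 mm or less (F1, F3, F6 and F8). No measured RNA level entered the choice. The donors were 5-year-old Rutki strain females, and each library was made from polyA RNA of a pool of 2 to 3 eggs of 1 clutch. In both length classes the control eggs had been inseminated with untreated sperm of 1 rainbow trout male and were sampled at once. Each female also gave a gynogenetic library from other eggs of the same clutch, which had been activated with UV-irradiated grayling sperm, so that only maternal chromosomes remain. The label of the genotype, "XX, Doubled Haploids", is the same for all libraries, although control eggs were inseminated with untreated sperm. No source used here says if the pressure shock that doubles the chromosomes came before the sampling of the gynogenetic eggs.

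A fish egg carries RNA that the mother transcribed and stored while the oocyte grew. This maternal RNA and the proteins made from it run the first cell divisions, until the genome of the embryo is switched on. In salmonids larger females usually lay larger eggs, and egg size, yolk and stored RNA are all laid down in the same period of ovarian growth. Levels in such pools are shares of the sequenced RNA, so less RNA of a gene per egg and more RNA of other genes cannot be told apart.

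Length came with other traits of the mothers. The 3 longer females were also the 3 heaviest of the 7, so length and weight cannot be told apart, and the number of eggs pooled depended on egg size but is not given per library. The classes of the study crossed the length classes. Among the longer females, F4 and F7 had increased competence for gynogenesis and F2 had decreased competence, and among the shorter ones F1 and F8 had increased and F3 and F6 decreased competence. The females with the higher survival of control embryos were F4 among the longer and F3 and F6 among the shorter ones. The paper found no significant difference in control survival between the females.

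Longer and shorter females did not form separate sets of libraries. The longer females had 34535902 to 57014149 counts assigned to genes per library and the shorter females 45735498 to 56216357, with F7 the lowest of the 7 (exact permutation test of the means, two-sided, p = 0.886). Genes with a count numbered 25608 to 28080 in longer and 26898 to 28497 in shorter females (exact permutation p = 0.571). Between 2 libraries, Pearson's r of log2 values over all detected genes averaged 0.919 for pairs of longer females, 0.917 for pairs of shorter females and 0.918 for mixed pairs, as a description. On the first principal component, which held 27.8% of the variance of the 500 most variable genes, the longer females lay between 19.0 and 28.5 and the shorter females between -59.5 and 25.1, where F6 and F8 stood apart from all others. Markers of egg, follicle and blood cells could not be looked up, since no table used here links these Ensembl genes to symbols beyond the study's own gene lists.

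**Figure D1:**
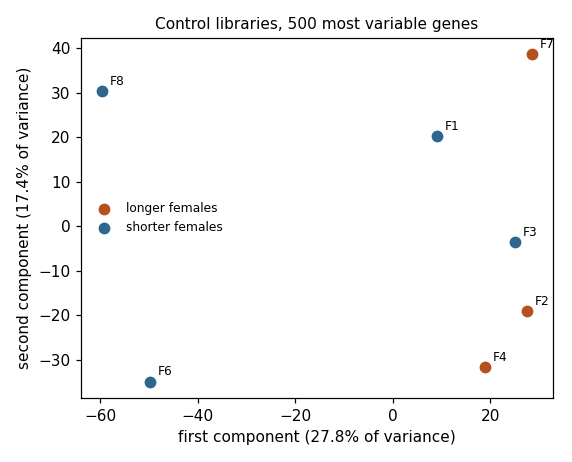
Position of the 7 control libraries on the first and second principal components (27.8% and 17.4% of the variance) of the 500 most variable genes. Points are libraries, named by female. The 3 longer females lie on the right of the first component together with the shorter females F1 and F3, and F6 and F8 lie on the left.

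By the main test no gene differed between the length classes after adjustment. Levels are counts divided by DESeq2 size factors (normalized counts), and 30919 of 64494 annotated genes had a mean above 1 and were tested. The quasi-likelihood test of edgeR called 0 of 30919 genes (0%) at an adjusted p below 0.05, and the lowest adjusted p was 0.55. At an unadjusted p below 0.05 it gave 1160 genes (3.75%), of which 465 were higher and 695 lower in eggs of longer females. DESeq2's Wald test on the same libraries called 54 genes (0.175%), 10 higher and 44 lower in longer females. All 54 had an unadjusted edgeR p of 0.00674 or less. In 40 of the 54 the 3 longer libraries did not overlap with the 4 shorter ones, against 4.29% of all detected genes. The 54 were called from these same libraries, so both results follow largely from the choice and give no further evidence of a difference by length. In gynogenetic eggs of the same clutches all 54 differed in the same direction, and 40 had an unadjusted edgeR p below 0.05, against 3.35% of all tested genes. The females are the same, so this is no independent replication. With each female left out in turn edgeR called 0 to 3 genes, and it called 5 without F6 and F8. With 3 against 4 libraries there are 35 possible splits, and the smallest p of an exact permutation test is 0.0286.

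Counted over all genes, the 3 longer libraries were all above the 4 shorter ones for 601 genes (1.94%) and all below them for 724 genes (2.34%). For a gene unrelated to length, each direction is 1 of 35 equally likely splits, a share of 0.0286. Both observed shares lie under it, so these counts do not show a difference by length. With counts divided by library totals, 427 genes lay all above and 944 all below, and the 944 exceed that share. The share is an average over the 35 splits, so passing it in 1 split is no test. By DESeq2 size factors the gynogenetic eggs of the same clutches gave 489 genes (1.58%) above and 596 genes (1.93%) below. In both kinds of eggs 185 genes had no overlap in the same direction, which is 14% of the 1325 such genes of control eggs and 17.1% of the 1085 of gynogenetic eggs. Both libraries of a female come from 1 clutch, so the gynogenetic eggs repeat the females and are not independent of the control eggs.

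The 30 genes of the lowest p with a mean of 10 normalized counts or more were not past the adjusted threshold, and none of them has a name in the tables at hand. Of these 30, 13 were higher and 17 lower in eggs of longer females, with unadjusted edgeR p between 1.81e-05 and 0.00129. In 21 the classes did not overlap, against 4.29% of all detected genes. The 30 were chosen by p in these same libraries, so the 21 follow largely from the choice. In gynogenetic eggs all 30 differed in the same direction as in control eggs, and 15 had no overlap. Over all detected genes 1.58% lay all above and 1.93% all below there. An unadjusted edgeR p below 0.05 was seen there for 27 of them, against 3.35% of all tested genes. These eggs came from the same clutches, so RNA particular to a clutch repeats there whatever the length of the mother. The repeat is therefore no replication of a difference by length. No further description is attached to these Ensembl genes here. The ones named below were the 2 of the lowest p in each direction with no overlap in either kind of eggs. By the exact permutation test in control eggs their p was 0.0286, the smallest possible, except 0.0571 for ENSOMYG00000042157. They were chosen by these same values, so none of their p-values is a test of length.

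ENSOMYG00000008212 was nearly undetected in eggs of longer females. It had 0, 0 and 3.02 normalized counts in control eggs of longer females F2, F4 and F7, against 94.3, 115, 166 and 327 in those of shorter females F1, F3, F6 and F8. The 3.02 of F7 are 2 counts, all that the longer libraries held together. These 2 counts, divided by the summed size factors of the longer libraries, were set against the shorter mean of 176. By this the gene was 244-fold lower in longer females (95% exact Poisson interval 43.8 to 9636.5, counting error only). For the interval the 2 counts were taken as 1 fragment, because nearly all counts are even. The mean of the longer normalized counts was 1.01, so the ratio of the means is smaller than 244. The edgeR log2 fold change was -7.57 (unadjusted p = 1.81e-05, adjusted p = 0.55), and DESeq2's adjusted p was 6.37e-07. In gynogenetic eggs it had 2.32, 3.99 and 0 normalized counts in longer females and 74.2, 71.7, 107 and 334 in shorter females. Every shorter library was more than 10 times above every longer library in both kinds of eggs.

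ENSOMYG00000042157 was also lower in every library of longer females. It had 45.4, 12.7 and 15.1 normalized counts in control eggs of F2, F4 and F7 and 2379, 1642, 131 and 674 in those of F1, F3, F6 and F8. The edgeR log2 fold change was -5.62 (unadjusted p = 6.25e-05, adjusted p = 0.55), and DESeq2's adjusted p was 4.7e-09. Gynogenetic eggs gave 48.8, 75.9 and 72.1 in longer and 2299, 1696, 263 and 562 in shorter females, with the same order of the shorter females. The shorter females differed among themselves more than they did for ENSOMYG00000008212, and F6 was the lowest of them in both kinds of eggs.

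ENSOMYG00000033504 was detected almost only in longer females. It had 122, 118 and 78.5 normalized counts in control eggs of F2, F4 and F7, against 1.93, 0, 0 and 6.5 in those of F1, F3, F6 and F8. The edgeR log2 fold change was 5.63 (unadjusted p = 0.000208, adjusted p = 0.876), and DESeq2's adjusted p was 3.29e-05. In gynogenetic eggs it had 88.3, 104 and 92.5 in longer females and 12.4, 0, 8.47 and 0 in shorter females. The longer females were close to each other in both kinds of eggs.

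ENSOMYG00000001566 differed by less and at a higher level. It had 3237, 4936 and 8998 normalized counts in control eggs of F2, F4 and F7 and 762, 1690, 2327 and 1752 in those of F1, F3, F6 and F8. The edgeR log2 fold change was 1.81 (unadjusted p = 0.000703), and the means on the log2(normalized count + 1) scale differed by 1.79 ± 0.54 (SE, 3 and 4 libraries). The gene passed the adjusted threshold by neither edgeR nor DESeq2. In gynogenetic eggs the longer females had 3557, 4813 and 2725 and the shorter females 667, 1639, 1298 and 2157. F7 was the highest control library and the lowest gynogenetic library of the longer females.

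**Figure D2:**
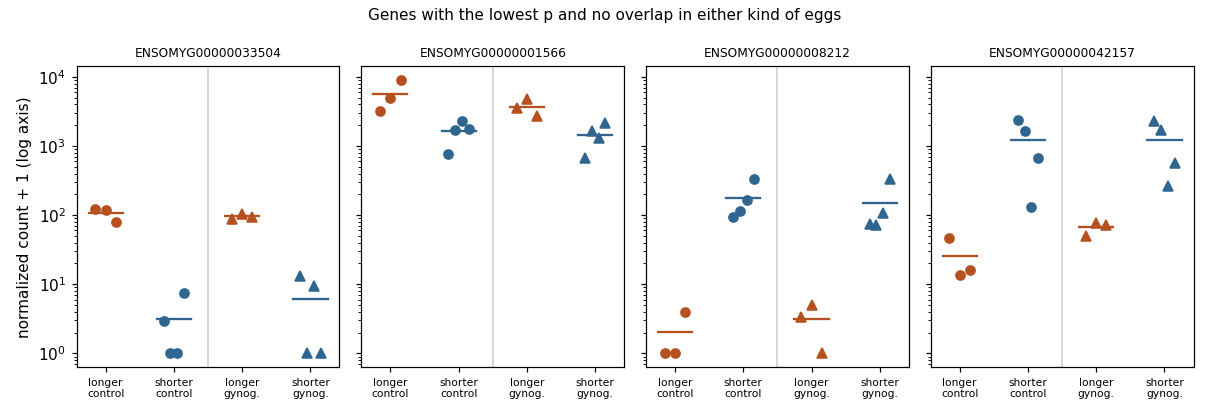
Normalized count + 1 on a log axis for the 4 genes described by library, in longer (left, brown) and shorter (right, blue) females, with control eggs as circles and gynogenetic eggs as triangles. Horizontal bars are group means. In each panel the longer and shorter libraries do not overlap in either kind of eggs, as for ENSOMYG00000033504 with 78.5 or more in longer and 6.5 or less in shorter control libraries.

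Many low p-values came from genes that some clutches held and others did not. Among the 13 genes higher in longer females, 8 were below 10 normalized counts in all 4 shorter libraries and also below 10 in at least 1 longer library. The gene with the second lowest p of the 30 had 2827 and 6113 normalized counts in F2 and F4, 0 in F7, and 0 to 1.93 in the shorter females. The gene with the fifth lowest p had 1351 and 773 in F2 and F4, and F7 with 6.04 lay among the shorter females, whose highest value was 6.67. In both genes the longer females differed among themselves, with F7 at or below 6.04. The other 5 of the 13 had at least 10 normalized counts in all 3 longer libraries.

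Among the 17 genes lower in longer females, 7 were below 10 normalized counts in all 3 longer libraries, and 9 had at least 100 in all 4 shorter libraries. Over all detected genes, 65 (0.21%) had no count in the longer control libraries and at least 1 in every shorter one, and 24 (0.0776%) showed the reverse. The 2 counts are not alike, since the first needs 0 in 3 libraries and the reverse in 4. The longer libraries also include F7, the control library with the fewest counts. In both kinds of eggs together, 7 genes (0.0226%) were at 0 in all 6 libraries of longer females and above 0 in all 8 of shorter females. The reverse was shown by 0 genes (0%), but it needs 0 in 8 libraries and not in 6. Some of the 7 lay near the floor, as ENSOMYG00000073725 with 1.67 to 2.18 normalized counts in the shorter control libraries. One of the 7 was ENSOMYG00000042061, chosen after its values were seen, with 0 in F2, F4 and F7 and 17.3, 16.7, 48.0 and 82.3 normalized counts in F1, F3, F6 and F8. With a floor of 3 fragments, taken as 6 counts because nearly all counts are even, over the longer control libraries, it was at least 19.0-fold lower in longer females. Without F8 this bound was 12.7-fold.

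The direction of the differences changed with the level of the genes. Of 1278 genes with a mean of 10000 normalized counts or more, 67.8% were higher in longer females, and the longer libraries were all above the shorter ones for 36 and all below for 3. Of 6173 genes between 1000 and 10000 the same counts were 175 and 75. Of 8110 genes between 10 and 100, 43.4% were higher in longer females, with 138 all above and 297 all below. The classes are unequal, so a gene held by 1 clutch alone is more likely to come from a shorter female. All below also needs low values in 3 libraries, and all above in 4. How much of the change with level comes from this was not tested. For a gene unrelated to length, each direction has a share of 0.0286. The 36 and the 175 genes all above did not exceed that share of their level, but the 297 all below did. That share is an average over the 35 splits, so passing it at 1 level in 1 split is no test. In gynogenetic eggs of the same females 199 of the 8110 genes lay all below, which did not exceed it. No overlap in either direction was seen for 3.05% of genes at the highest level, against 4.29% of all detected genes. The 36 were no excess over the share of 0.0286, and the 3 all below lay far under it. Over all detected genes 1.94% lay all above and 2.34% all below. Against these, the 36 were a higher share of their level and the 3 a lower one. The median log2 fold change was 0.09 at the highest level, 0.05 and -0.03 at the next lower ones, and -0.13 between 10 and 100 and -0.29 between 1 and 10.

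The balance of genes above and below depended on the scaling, and it was not the same in gynogenetic eggs. With counts divided by library totals, the 1278 most abundant genes gave 16 all above and 11 all below, and the genes between 1000 and 10000 gave 111 and 130. The medians were then 0.01 at the highest level, -0.03 and -0.11 at the next lower ones, -0.21 between 10 and 100 and -0.38 between 1 and 10. They were shifted down but still fell toward lower levels. In gynogenetic eggs the medians were 0.03 at the highest level and -0.04 between 10 and 100, and the most abundant genes gave 11 all above and 11 all below. There the balance was the other way round from control eggs between 1000 and 10000, with 84 above and 101 below. It was also the other way round between 1 and 10, with 95 above and 89 below. More genes lay below than above between 10 and 100 (166 above, 199 below) and between 100 and 1000 (120 above, 190 below), as in control eggs. Without F7, the control library with the fewest counts, the medians in control eggs were 0.12 and -0.16. The part of depth and of the share of the most abundant genes was not tested; the 10 most abundant genes took 2.16% to 2.64% of the counts in longer and 2.06% to 2.26% in shorter females (exact permutation p = 0.171).

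**Figure D3:**
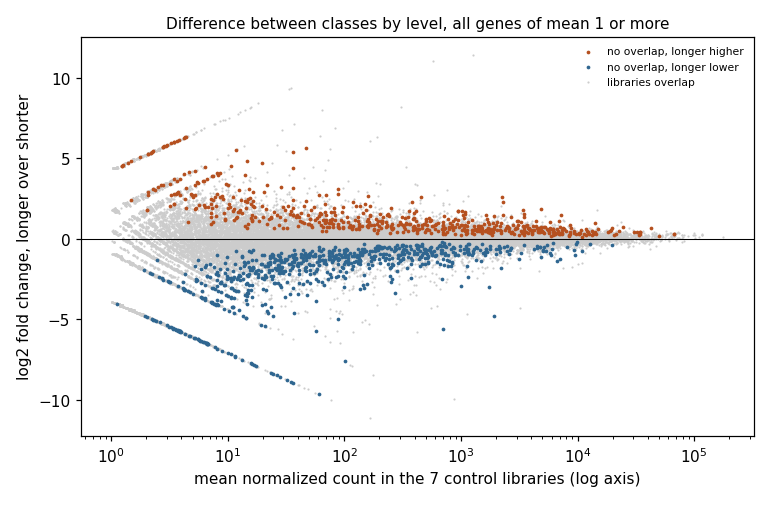
Fold change of each gene on the log2 scale, longer over shorter control eggs, against its mean normalized count in the 7 control libraries (log axis). Brown points are genes whose longer libraries were all above the shorter ones and blue points genes with all below. Differences narrow with level, and at 10000 or more the brown points (36) outnumber the blue ones (3). The 36 do not exceed the share of 0.0286 that genes unrelated to length would give.

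**Figure D4:**
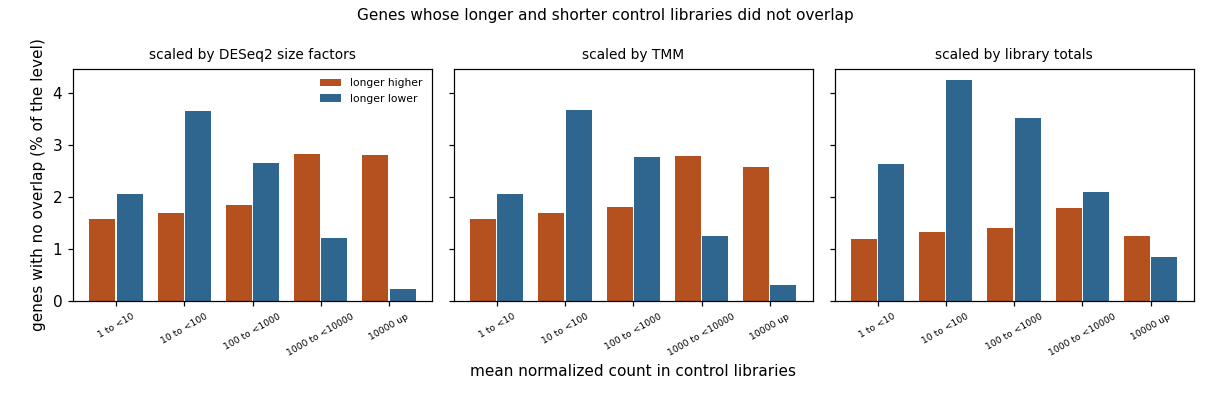
Share of genes of each level whose longer and shorter control libraries did not overlap, in percent of the genes at that level, under 3 scalings. Brown bars are genes higher and blue bars genes lower in longer females. Below 1000 normalized counts the blue bars are higher under each scaling, and above it the brown bars are higher by DESeq2 size factors and TMM but not in all levels by library totals.

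Abundant maternal RNAs were mostly close to the same level in the 2 length classes. The median absolute log2 fold change was 0.15 for genes of 10000 normalized counts or more, 0.21 between 1000 and 10000, 0.32 between 100 and 1000, 0.56 between 10 and 100 and 1.35 between 1 and 10. The median standard error of the difference was 0.23 on the log2(normalized count + 1) scale at the highest level and 1.15 at the lowest. A log2 fold change beyond 1 in either direction was seen for 2.64% of the genes between 1000 and 10000 and for 60.5% of those between 1 and 10. At the highest level it was seen for 5 genes (0.391%). Their log2 fold changes were 1.16, -1.56, -1.48, 1.81 and 1.03, and in each the length classes overlapped in control eggs.

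The 36 abundant genes with all longer libraries above were picked by that order, so their positive sign and low p follow largely from the choice. Their log2 fold changes ran between 0.145 and 0.998, and 12 had an unadjusted edgeR p below 0.05, against 3.75% of all genes. The one of the lowest p, ENSOMYG00000010951, had 17581, 25400 and 16035 normalized counts in F2, F4 and F7 and 9752, 9986, 11766 and 8121 in F1, F3, F6 and F8 (log2 fold change 0.998, unadjusted p = 0.00129). In gynogenetic eggs of the same clutches, which are no independent repeat, 33 of the 36 had a positive log2 fold change. All longer libraries were above there for 2 of them, against 1.58% of all genes. The 3 abundant genes with all longer libraries below were ENSOMYG00000040017, ENSOMYG00000014402 and ENSOMYG00000030080, named after their values were seen. Their log2 fold changes were -0.73, -0.41 and -0.33, and ENSOMYG00000040017 had 10158, 8225 and 5482 in F2, F4 and F7 against 14407, 11241, 12831 and 14493 in F1, F3, F6 and F8.

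Genes with a name came only from the study's lists, which were chosen for their relation to embryo survival in these same libraries and so are not a sample of all genes. Of their 273 detected members, 220 were chosen by control survival and 53 by gynogenetic survival. Each length class held females of higher and of lower survival by either measure. A gene that follows survival therefore tends to overlap between the length classes. Among the members, 0 had an unadjusted p below 0.05 (lowest 0.202) and 0 had no overlap, against 3.75% and 1.94% plus 2.34% of all genes. None was among the 54 genes called by DESeq2. These results were largely set by the choice of genes and say little about length. The median log2 fold change of the members was -0.0030, and that of all detected genes was -0.02. They are described by role, with roles known from other vertebrates.

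Growth, insulin and hormone signalling had 15 measured members, with 6 positive and 9 negative log2 fold changes, a median of -0.08 and 0 past the test. irs2a, which links the insulin and IGF receptors to the kinases inside the cell, had 0, 223 and 504 normalized counts in F2, F4 and F7 and 658, 0, 0 and 529 in F1, F3, F6 and F8. It was at 0 in 1 longer and 2 shorter females (exact permutation p = 1). smurf2, a ubiquitin ligase that limits TGF-beta and BMP signals, had 180, 181 and 151 in longer and 88.6, 160, 120 and 115 in shorter females. Only F3 of the shorter females was above the lowest longer one, and the log2 fold change was 0.50 (unadjusted p = 0.33). npr1a, a natriuretic peptide receptor, had 134, 92.5 and 90.6 in longer and 90.5, 204, 179 and 154 in shorter females (log2 fold change -0.57, unadjusted p = 0.303). Values of src, a membrane-bound tyrosine kinase, and acvr1ba, an activin receptor, overlapped with log2 fold changes of 0.08 and -0.13.

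Cell division and microtubules had 21 measured members, with 14 positive and 7 negative log2 fold changes, a median of 0.07 and 0 past the test. ccnb1, the cyclin B1 that drives entry into mitosis, lies on chromosome 5 from 28876573 to 28880143 (OmykA_1.1) and was among the most abundant RNAs. It had 139384, 95788 and 110049 normalized counts in longer and 129180, 91975, 82523 and 119927 in shorter females, with a difference of 0.13 ± 0.22 on the log2 scale (SE). tacc3, which stabilises spindle microtubules, had 66476, 44961 and 52947 in longer and 61823, 39217, 33858 and 55369 in shorter females, with a difference of 0.23 ± 0.28. In both genes the classes overlapped over most of their range. For nde1, a partner of the dynein motor, the log2 fold change was -0.25 (unadjusted p = 0.559).

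Mitochondria and energy had 18 measured members, with 12 positive and 6 negative log2 fold changes and a median of 0.02. hspa9, the mitochondrial Hsp70 chaperone, had 32115, 26610 and 30780 normalized counts in longer and 33115, 24486, 24431 and 32981 in shorter females. COX5B, a subunit of cytochrome c oxidase, had 25285, 21168 and 23526 in longer and 26179, 19252, 21531 and 27204 in shorter females. The longer females lay within the range of the shorter ones for both genes, with log2 fold changes of 0.06 and -0.01. pgam5, a phosphatase of the mitochondrial membrane on chromosome 6 from 35319218 to 35327656, had 442, 1250 and 2160 in longer and 1093, 355, 349 and 1460 in shorter females. Its difference of 0.67 ± 0.85 on the log2 scale was smaller than its standard error, and it ranged widely in each class. mccc1, of leucine breakdown, had a log2 fold change of 0.21.

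Sugar, lipid and small-molecule metabolism had 15 measured members, with 10 positive and 5 negative log2 fold changes, a median of 0.03 and 0 past the test. ahcy, which clears S-adenosylhomocysteine after methylation reactions, lies on chromosome 7 from 30561586 to 30578870. It had 1409, 3312 and 2111 normalized counts in longer and 1731, 3636, 3310 and 1830 in shorter females. F2 was the lowest and F3 the highest of the 7, and the difference was -0.21 ± 0.45 on the log2 scale. insig2, which holds back sterol synthesis, and akr1b1.2, an aldose reductase, had log2 fold changes of -0.20 and 0.02, and their classes overlapped.

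The ubiquitin system had 10 measured members, smurf2 among them, with 8 positive and 2 negative log2 fold changes, a median of 0.10 and 0 past the test. fbxw11a, an F-box protein that selects substrates such as beta-catenin for degradation, lies on chromosome 31 from 27175517 to 27191013. It had 17317, 16489 and 14960 normalized counts in longer and 12407, 12184, 15425 and 16068 in shorter females. F7 lay below F6 and F8, and the difference was 0.22 ± 0.13 on the log2 scale (exact permutation p = 0.229). MARCHF7, a membrane-associated ubiquitin ligase, had 14273, 5190 and 12390 in longer and 13772, 6240, 7842 and 11348 in shorter females, and F4 was the lowest of all 7.

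Transcription and chromatin had 20 measured members, with 13 positive and 7 negative log2 fold changes and a median of 0.03. cbx3a, an HP1 protein of heterochromatin, had 39826, 31622 and 39923 normalized counts in longer and 41184, 32449, 34266 and 40532 in shorter females and F4 was the lowest of the 7. Its log2 fold change was 0.00. pbx2, a homeobox partner of Hox proteins, had 3873, 2113 and 3253 in longer and 3850, 2056, 2183 and 3433 in shorter females. hesx1, a homeobox repressor of the forebrain, and SCMH1, a Polycomb protein, had log2 fold changes of 0.26 and -0.47 with unadjusted p of 0.485 and 0.454.

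RNA processing and translation had 15 measured members, with 7 positive and 8 negative log2 fold changes and a median of -0.02. snrpa and snrnp27, of the U1 and the tri-snRNP spliceosome particles, had log2 fold changes of 0.04 and 0.03, and sf3a1, of the U2 particle, had -0.11. krr1, of small ribosomal subunit assembly, had 252, 183 and 190 normalized counts in longer and 202, 315, 323 and 217 in shorter females (log2 fold change -0.34, unadjusted p = 0.467). eif4g2b, a translation initiation factor, and eefsec, which brings selenocysteine to the ribosome, had log2 fold changes of -0.09 and -0.04.

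Vesicles, secretion and protein folding had 15 measured members, with 9 positive and 6 negative log2 fold changes and a median of 0.02. atp6v1h, a subunit of the proton pump that acidifies yolk and other vesicles, had 23766, 14783 and 16842 normalized counts in longer and 21058, 14762, 14200 and 21455 in shorter females. ccdc47, of the endoplasmic reticulum, and dnaja1, an Hsp40 chaperone, had log2 fold changes of 0.04 and 0.28. myrip, a linker of vesicles to myosin, was at or under 10.9 in every control library. None of the 8 groups had a member past an unadjusted p of 0.05. Since the members were chosen by survival, which crossed the length classes, this says little about length.

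**Figure D5:**
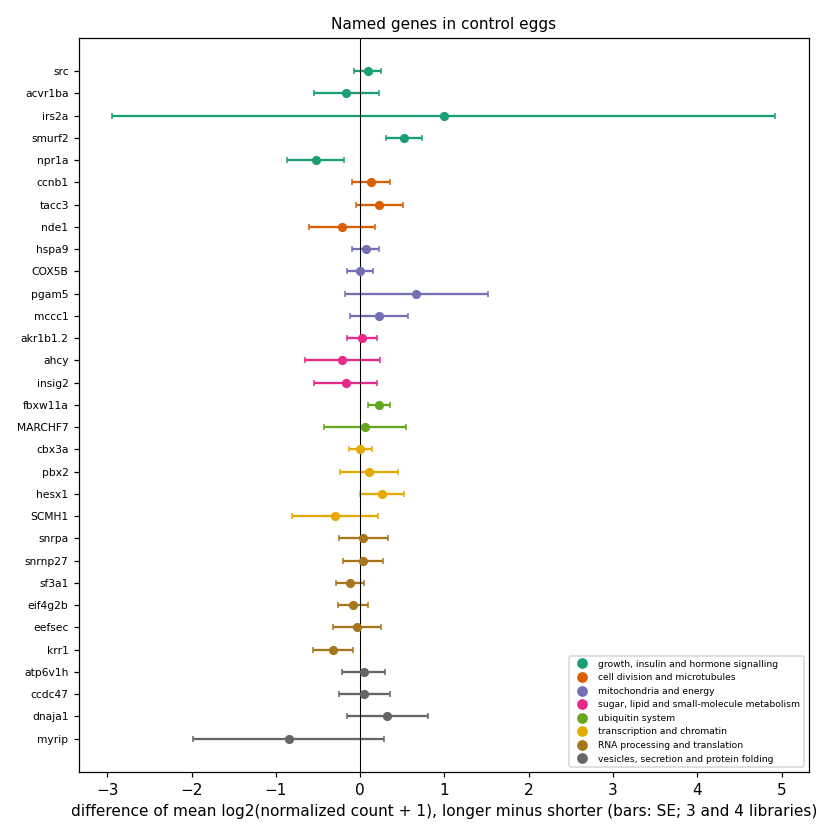
Difference of mean log2(normalized count + 1), longer minus shorter control eggs, for the named genes, coloured by role and ordered by level within a role. Bars are standard errors from 3 longer and 4 shorter libraries. Most points lie near zero, and irs2a, at 0 in F2, F3 and F6, has an error of 3.93.

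The difference between the length classes was itself compared between control and gynogenetic eggs, with the female as block. In gynogenetic eggs alone edgeR called 0 genes (0%) at an adjusted p below 0.05 and 1036 (3.35%) unadjusted, and DESeq2 called 23 (0.0744%). For the difference between the 2 kinds of eggs, edgeR called 3 genes (0.0097%), each at an adjusted p of 0.0336, and gave 769 at an unadjusted p below 0.05. DESeq2's Wald test with the same block called 0 and gave 812 unadjusted, and the quasi-likelihood test without the block called 0.

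ENSOMYG00000041608 had 5.92, 54.4 and 27.2 normalized counts in control eggs of F2, F4 and F7 and 17.3, 26.7, 131 and 93.1 in those of F1, F3, F6 and F8. In gynogenetic eggs it had no count in any longer female and 14.4, 12.9, 60.7 and 130 in the shorter females. The classes overlapped in control eggs and were apart in gynogenetic eggs, and the differences differed by 7.45 on the log2 scale.

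ENSOMYG00000043826 had 158, 132 and 75.5 normalized counts in control eggs of longer and 268, 255, 216 and 461 in those of shorter females. In gynogenetic eggs it had 377, 429 and 116 in longer and 146, 151, 136 and 93.1 in shorter females. The log2 fold change was -1.29 in control eggs and 1.22 in gynogenetic eggs, where F7 lay among the shorter females. The differences differed by -2.34 on the log2 scale.

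ENSOMYG00000048584 had 0 in all longer control libraries and 25.03, 16.7, 26.2 and 353 normalized counts in F1, F3, F6 and F8. With the same floor of 6 counts over the longer libraries, it was at least 48.7-fold lower in control eggs of longer females, and at least 10.5-fold lower without F8. In gynogenetic eggs it had 13.9, 16.0 and 0 in longer and 8.24, 5.52, 12.7 and 328 in shorter females, and the classes overlapped. F8 carried most of its counts in both kinds of eggs. Without F8 none of these 3 genes passed, with adjusted p of 0.512 for ENSOMYG00000041608, 0.555 for ENSOMYG00000043826 and 1 for ENSOMYG00000048584, and without F4 none passed either.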

How the data were processed

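The deposited values are unnormalized read counts per Ensembl gene, which the authors made by FastQC 0.11.9, Flexbar trimming, mapping with STAR 2.7.5c to OmykA_1.1 and counting with HTSeq, version 1.99.2 by the submitters' processing notes. The strand setting is not stated. Of the nonzero counts, 99.7% to 99.8% were even in each library, so a count may be less than 1 independent fragment. The 5 summary lines were left out, and 27.1% to 32% of the uniquely mapped counts of control libraries fell in no gene or more than 1.

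The female of each library and the length classes come from the study's supplementary tables. Normalized counts used DESeq2 1.42.0 size factors over 14 libraries. The main test was edgeR's quasi-likelihood test (edgeR 4.0.16, R 4.3.3, TMM) without covariates, on genes with a mean above 1, with Benjamini-Hochberg adjustment. The test of the difference between control and gynogenetic eggs had the female as block, because both libraries come from 1 clutch. Deviations from group means correlated with r of 0.373 to 0.529 within a female and at most 0.0548 between females.

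Genes to be named were those past the adjusted threshold, then those of the lowest p at a mean of at least 10, up to 30, and members of preset lists. Of 22 preset lists 7 had a matched member, since 236 detected genes had a symbol or description. Within each role, the 2 of the lowest p and the 2 of the highest level were named, and members of preset lists. Symbols and Entrez numbers are from the study's lists, and coordinates for 147 of 274 genes are from RefSeq (USDA_OmykA_1.1). The members and lists were chosen with earlier results of these data known. Alternatives were DESeq2, limma-voom 3.58.1, other scalings and filters, leaving out each female, both libraries of a female, trends on length and weight, and covariates. Halved counts, leaving out F6 and F8, and bounds with 1 fragment taken as 2 counts were added after the data were seen. One gene of the study's lists is not reported here.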

Additional observations from a re-analysis of the deposited data

Results flagged for a closer look

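ENSOMYG00000048584 had 353 normalized counts in control eggs of the shorter female F8 and 16.7 to 26.2 in those of the other 3 shorter females, a gap of 0.856 of the range on the log2 scale. It was the only such gap among 80 groups of 4 libraries examined, where chance gives about 1 in 20. The difference between longer and shorter females differed between control and gynogenetic eggs for 3 genes by the test with the female as block (edgeR quasi-likelihood test, adjusted p = 0.0336 each). The difference in control eggs minus that in gynogenetic eggs was 7.45 for ENSOMYG00000041608, -2.34 for ENSOMYG00000043826 and -7.55 for ENSOMYG00000048584 on the log2 scale, of which the first and the last rest on libraries at 0 and are no bounds.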

How the results depend on the processing

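For longer against shorter females in control eggs, the count of 0 genes at an adjusted p below 0.05 was kept by edgeR with RLE factors or library totals, filterByExpr, a mean of at least 10, limma-voom, the sum of both libraries of a female, trends on body length or weight, either covariate and halved counts. It was 54 by DESeq2, 1 without a filter on low counts, and 5 without F6 and F8. Leaving out 1 female gave 0 to 3 calls, with 0 without F2, 1 without F1, F6 or F8, 2 without F4, and 3 without F3 or F7. With both libraries of each female and the female as a replicate block, limma-voom gave 1 call, ENSOMYG00000076799, lower in longer females (adjusted p = 0.0417). In gynogenetic eggs the count of 0 was 23 by DESeq2 and 0 to 3 with 1 female left out, with 0 without F6, 1 without F1, F2 or F4, 2 without F7, and 3 without F3 or F8. For the difference between control and gynogenetic eggs the count of 3 was 0 with no replicate block, 0 by DESeq2, 0 with filterByExpr, 1 with halved counts and 0 to 28 with 1 female left out, with 28 without F2, 23 without F7, 5 without F6, 1 without F4 and 0 without F8. ENSOMYG00000042157 passed by DESeq2, without F6 (adjusted p = 0.0497) and without F6 and F8 (adjusted p = 0.00599), over a range of 4.7e-09 to 1 in its alternatives. Library totals moved the median log2 fold change of all genes to -0.10, against -0.02, and 30.5% of the genes at an unadjusted p below 0.05 were then higher in longer females, against 40.1%. Genes all above and all below were then 427 and 944 of 30919. The 944 exceed the share of 0.0286 for each direction, which 601 and 724 by DESeq2 size factors did not. The percent of genes at an unadjusted p below 0.05 that were higher in longer females was 32.6% by DESeq2 and 48% by limma-voom. It was 49.4% with both libraries of each female and the replicate block, and 54.1% without F6 and F8. Over 834 alternative values of the 38 named genes, 123 had the other sign, 0 of them past the threshold. The median standard error of the difference was 1.15 on the log2 scale for genes between 1 and 10 normalized counts, so small differences were not detectable there.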
